A study of Mus musculus with 73 samples.

Results

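The genes described here encode proteins of the mitochondrial ribosome and of the machinery that brings proteins into mitochondria. They were taken by name, as every array feature with 1 gene symbol that starts with Mrpl or Mrps and a digit, Timm or Tomm. Of 9596 features, 44 met this rule. They stand for 40 genes, of which 19 are Mrpl, 13 are Mrps, 4 are Timm and 4 are Tomm. Mrpl39, Mrps5, Mrps25 and Tomm70a each have 2 features, which were averaged on each array. Another 6 features carry several symbols and were left out. The name of Mrps36 places it with the small ribosomal subunit, while its protein is also known as a subunit of the oxoglutarate dehydrogenase complex. All 40 genes had enough values for testing on the arrays of tissue against a reference RNA, and 34 had enough on the direct tumor arrays. Mrpl17, Mrpl27, Mrpl35, Mrpl40, Mrps18a and Timm44 were not measured on the direct arrays.

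Mitochondria keep a small genome whose few protein products are core subunits of the respiratory chain, and these are made on a ribosome of the organelle's own. The Mrpl proteins belong to its large subunit and the Mrps proteins to its small subunit, and all of them are encoded in the nucleus and imported. Import begins at the outer membrane, where Tomm20, Tomm22 and Tomm70a recognise precursors and Tomm40 forms the channel. Timm10 and its relatives escort membrane proteins across the space between the membranes, Timm10b and Timm29 belong to the inner membrane complex that inserts carriers, and Timm44 tethers the motor that pulls matrix proteins in.

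The study compared total RNA from tumors and healthy tissue of mice on 2-colour cDNA arrays. On 35 arrays the tissue was labelled with Cy3 and a universal reference RNA with Cy5, and values are log2 ratios of tissue over reference. On the other 38 a mammary tumor (Cy5) was hybridised against normal mammary gland (Cy3), and values are log2 ratios of tumor over normal gland with each array centred on its own median. No array has its dyes swapped, so a dye effect of a feature does not cancel on the direct arrays.

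On the reference arrays, prostate had 5 tumors and 4 normal samples and seminal vesicle had 6 tumors and 4 normal samples. These are C57BL/6 mice, the tumors from the TRAMP line with the construct PB/SV40 T/t-antigen, in which the probasin promoter drives the viral T antigens, and the normal samples from wild-type mice. Mammary gland had 4 tumors and 4 normal samples, and lung had 4 of each. These are FVB mice, with C3(1)/SV40 T/t-antigen for the mammary tumors and CC10 SV40 T/t-antigen for the lung tumors, CC10 being a promoter of airway secretory cells. Strain and location cannot be told apart between the C57BL/6 and the FVB pair. The direct models were p53 null transplant tumors (5, Balb/c, p53-/-), p53 floxed WAP-cre tumors (4, C57BL6/129sv) and Brca1 Co/Co;MMTV-cre;p53 tumors (5, C57BL6/129sv). The others, all FVB, were C3(1)/SV40 T/t-antigen (5, called C3(1) Tag), MMTV-her2/neu (5), MMTV-myc (4), MMTV-ras (5) and MMTV-PyMT (5). The labels do not say that samples of a group came from separate animals, so a p-value measures the spread between samples.

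Genes with 3 or more values in each group were tested with limma, and a gene passed where its p, adjusted over all genes tested by Benjamini-Hochberg, was under 0.05. Rose, fell and changed are used below of genes that passed. All values in tissues are log2 ratios against the same reference, so levels are compared between tissues for 1 gene and not between genes. Tumor and normal samples are whole tissue, in which fewer cells of a type and less RNA per cell cannot be told apart.

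The tissues checked against marker genes as follows. The 11 cell division genes measured rose in the tumors of all 4 sites. The mean of 9 epithelial markers was -0.67 ± 0.15 in prostate tumors, against 1.32 ± 0.11 in normal prostate (SD, n = 5 and 4), and all 9 fell, so epithelial markers lay below the reference in the prostate tumors. It was 1.89 ± 0.20 in seminal vesicle tumors, against 1.43 ± 0.10 in normal seminal vesicle, and it was 1.55 ± 0.09 in lung tumors, against 0.40 ± 0.08 in normal lung. The mean of 15 skeletal muscle genes was -0.02 ± 0.12 in prostate tumors, against 3.79 ± 0.36 in normal prostate, and all 15 fell there. The mean of 12 adipocyte genes was 1.22 ± 0.78 in mammary tumors, against 3.48 ± 0.18 in normal mammary gland, and 11 fell. In prostate tumors 10 of the 12 adipocyte genes and 4 of 6 endothelial genes fell too. In seminal vesicle tumors 4 epithelial markers rose and 1 fell, 3 skeletal muscle genes rose, and 1 adipocyte gene rose and 4 fell. In mammary tumors 5 of 6 endothelial genes (median -0.97) and 4 of 6 T cell genes fell and 5 of 9 epithelial markers rose. In lung tumors 6 of 6 endothelial genes (median -1.29) and 5 of 6 T cell genes (-0.42) fell and 8 of 9 epithelial markers rose. The part of these cell types in the changes below was not tested.

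The genes with the largest rises and the one with the largest fall in the SV40 tumors are shown with their promoters. Prostate is the site in which each of them changed. The fall of Mrpl39 is that of an average of 2 features that disagreed. The sequences run from 250 bases before the annotated start to 50 after it, 5′ to 3′ on the strand of the gene, from RefSeq on GRCm38.p6. Capitals mark matches to 3 motifs, which are CCGGAAG (ETS factors such as GABP, written on the other strand as CTTCCGG), the palindromic NRF-1 motif of 10 bases and CCAAT. The windows are chr9:98601630-98601929 (minus strand) for Mrps22, chr6:39810887-39811186 (minus strand) for Mrps33, chr11:94653541-94653840 (plus strand) for Mrpl27 and chr16:84735195-84735494 (minus strand) for Mrpl39.
Mrps22: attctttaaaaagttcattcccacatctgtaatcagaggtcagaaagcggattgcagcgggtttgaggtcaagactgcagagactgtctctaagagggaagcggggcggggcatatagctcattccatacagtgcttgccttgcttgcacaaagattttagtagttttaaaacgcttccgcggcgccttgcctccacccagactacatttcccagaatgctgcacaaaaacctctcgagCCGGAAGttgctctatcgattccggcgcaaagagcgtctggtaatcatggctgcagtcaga
Mrps33: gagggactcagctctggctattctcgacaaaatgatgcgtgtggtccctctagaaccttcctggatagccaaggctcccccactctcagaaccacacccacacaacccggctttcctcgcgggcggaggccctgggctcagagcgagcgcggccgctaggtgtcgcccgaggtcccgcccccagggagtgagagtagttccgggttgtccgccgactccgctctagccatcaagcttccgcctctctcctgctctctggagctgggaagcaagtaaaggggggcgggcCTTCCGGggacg
Mrpl27: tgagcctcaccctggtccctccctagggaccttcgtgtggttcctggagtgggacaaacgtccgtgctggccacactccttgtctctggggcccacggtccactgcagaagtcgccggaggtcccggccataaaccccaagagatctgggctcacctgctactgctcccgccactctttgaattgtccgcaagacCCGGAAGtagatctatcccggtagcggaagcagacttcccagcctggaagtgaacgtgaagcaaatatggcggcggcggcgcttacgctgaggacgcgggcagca
Mrpl39: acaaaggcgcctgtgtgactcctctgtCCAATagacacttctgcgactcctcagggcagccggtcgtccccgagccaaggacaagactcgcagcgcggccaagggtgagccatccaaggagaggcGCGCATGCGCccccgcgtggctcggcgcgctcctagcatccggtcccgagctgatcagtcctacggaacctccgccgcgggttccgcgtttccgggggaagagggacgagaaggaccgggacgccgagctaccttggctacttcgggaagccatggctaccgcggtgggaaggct

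GABP and NRF-1 are nuclear factors known for binding promoters of genes for mitochondrial proteins. Promoters of 33 of the 40 genes were matched. CCGGAAG, on either strand, lay in 13 of the 33 (39.4%), against 9.93% of 27025 genes. The NRF-1 motif lay in 2 of 33 (6.06%, Mrpl39 and Mrpl32), against 1.07% of all genes. AAGATGGCG, a YY1 motif, lay in 2 (6.06%), against 1.64%. CACGTG lay in 3 (9.09%), against 8.09%, and CCAAT in 13 (39.4%), against 41.1%. The median GC content was 59% in the promoters of the mitochondrial genes, against 52.7% in all promoters, and these shares were not adjusted for it. Mrps22, Mrps33 and Mrpl27 hold CCGGAAG and Mrpl39 does not, while Mrps18a, Mrps18b and Mrpl21, which fell in prostate and seminal vesicle tumors, hold it too. A match describes the letters of the window and is not a measured site.

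In prostate tumors 26 of the 40 genes changed, where 61.4% of all genes did. Of these, 9 rose (29.2% of all genes rose) and 17 fell (32.2% of all genes fell). The median change was -0.16, against -0.03 over all genes. The share that changed was thus near that of the array as a whole. Among the subgroups, 9 of 19 Mrpl genes fell and 2 rose, 7 of 13 Mrps genes fell and 3 rose, and 3 of the 4 Tomm genes rose.

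Mrps33, a protein of the small subunit, rose most. Its log2 ratios were 0.21, 0.39, 0.26, 0.16 and 0.08 in prostate tumors, against -0.73, -0.83, -0.89 and -0.55 in normal prostate. All tumors lay above the reference and all normal samples below it. The change was 0.97 ± 0.10 (SE, limma adjusted p = 8.44e-10).

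Mrpl27, of the large subunit, had 0.23, 0.41, 0.26, 0.51 and 0.76 in prostate tumors, against -0.48, -0.27, -0.47 and -0.35 in normal prostate (change 0.83 ± 0.12, limma adjusted p = 3.97e-07). The groups did not overlap. Mrps22, a small-subunit protein whose loss causes mitochondrial disease in humans, had 0.19, 0.05, 0.04, 0.19 and 0.03 in tumors, against -0.58, -0.63, -0.71 and -0.57 in normal prostate (change 0.72 ± 0.11, limma adjusted p = 7.92e-07). Its tumor values spanned a narrow range above every normal value. Tomm20l, a relative of the import receptor Tomm20, had 0.01, 0.39, -0.05, 0.01 and 0.44 in tumors, against -0.58, -0.48, -0.62 and -0.52 in normal prostate (change 0.71 ± 0.11, limma adjusted p = 1.22e-06). Mrpl40, of the large subunit, had 0.23, 0.07, 0.01, -0.02 and 0.27 in tumors, against -0.59, -0.40, -0.41 and -0.48 in normal prostate (change 0.58 ± 0.07, limma adjusted p = 3.69e-08). For both genes the groups stood apart. Timm10, the chaperone of the intermembrane space, had -0.15, -0.42, -0.42, -0.32 and -0.41 in tumors, against -1.12, -0.93, -0.90 and -0.60 in normal prostate (change 0.54 ± 0.13).

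The largest fall was that of Mrpl39, whose 2 features disagree and are described separately below. After it came Mrps28, which changed by -0.64 ± 0.11, Mrps18a by -0.59 ± 0.13 and Mrps36 by -0.58 ± 0.12 (SE). Mrpl1, which in bacteria forms a mobile stalk at the exit of spent tRNA, had 0.06, -0.03, -0.02, -0.03 and -0.16 in prostate tumors, against 0.33, 0.39, 0.59 and 0.61 in normal prostate (change -0.52 ± 0.14, limma adjusted p = 0.0014). Tomm40, the channel protein, had -0.29, -0.36, -0.32, -0.29 and -0.22 in tumors, against -0.07, 0.27, 0.30 and 0.02 in normal prostate (change -0.43 ± 0.11, limma adjusted p = 0.0017). Among the Tomm genes, Tomm40 thus fell while Tomm20l, Tomm22 (0.48 ± 0.15) and Tomm70a (0.21 ± 0.08) rose. The call of Tomm70a is lost without any 1 of 5 arrays (normal replicate 1, 3 or 4, tumor replicate 2 or 5), where it was 0.17 to 0.20. Counted without a test, the tumors lay wholly above the normal samples for 6 of the 40 genes (24.9% of all genes) and wholly below for 16 (28.6%).

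The skeletal muscle genes fell in the same comparison, and their mean separates the prostate tumors from the normal samples without overlap. With that mean as a covariate, 6 of the 40 genes passed in prostate, where 27.3% of all genes did. Those that rose under it were Mrps33, Mrpl27, Mrps22, Tomm20l and Mrpl40, with changes of 1.12, 0.82, 0.87, 0.82 and 0.68, and Mrpl21 was the one that fell (-0.64). Mrpl1 (-0.51, limma adjusted p = 0.178) and Mrpl39 (-0.37, limma adjusted p = 0.203) did not pass. Because the mean follows the tumor and normal groups, a call lost under this fit cannot be assigned to muscle content. Arrays fall into runs by the numbers of the array database, and run 1 holds 1 prostate tumor and 3 normal prostates. Within it 14 genes passed, 6 upward and 8 downward (48.3% of all genes), with the spread of the lone tumor taken to be that of the other groups.

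**Figure D1:**
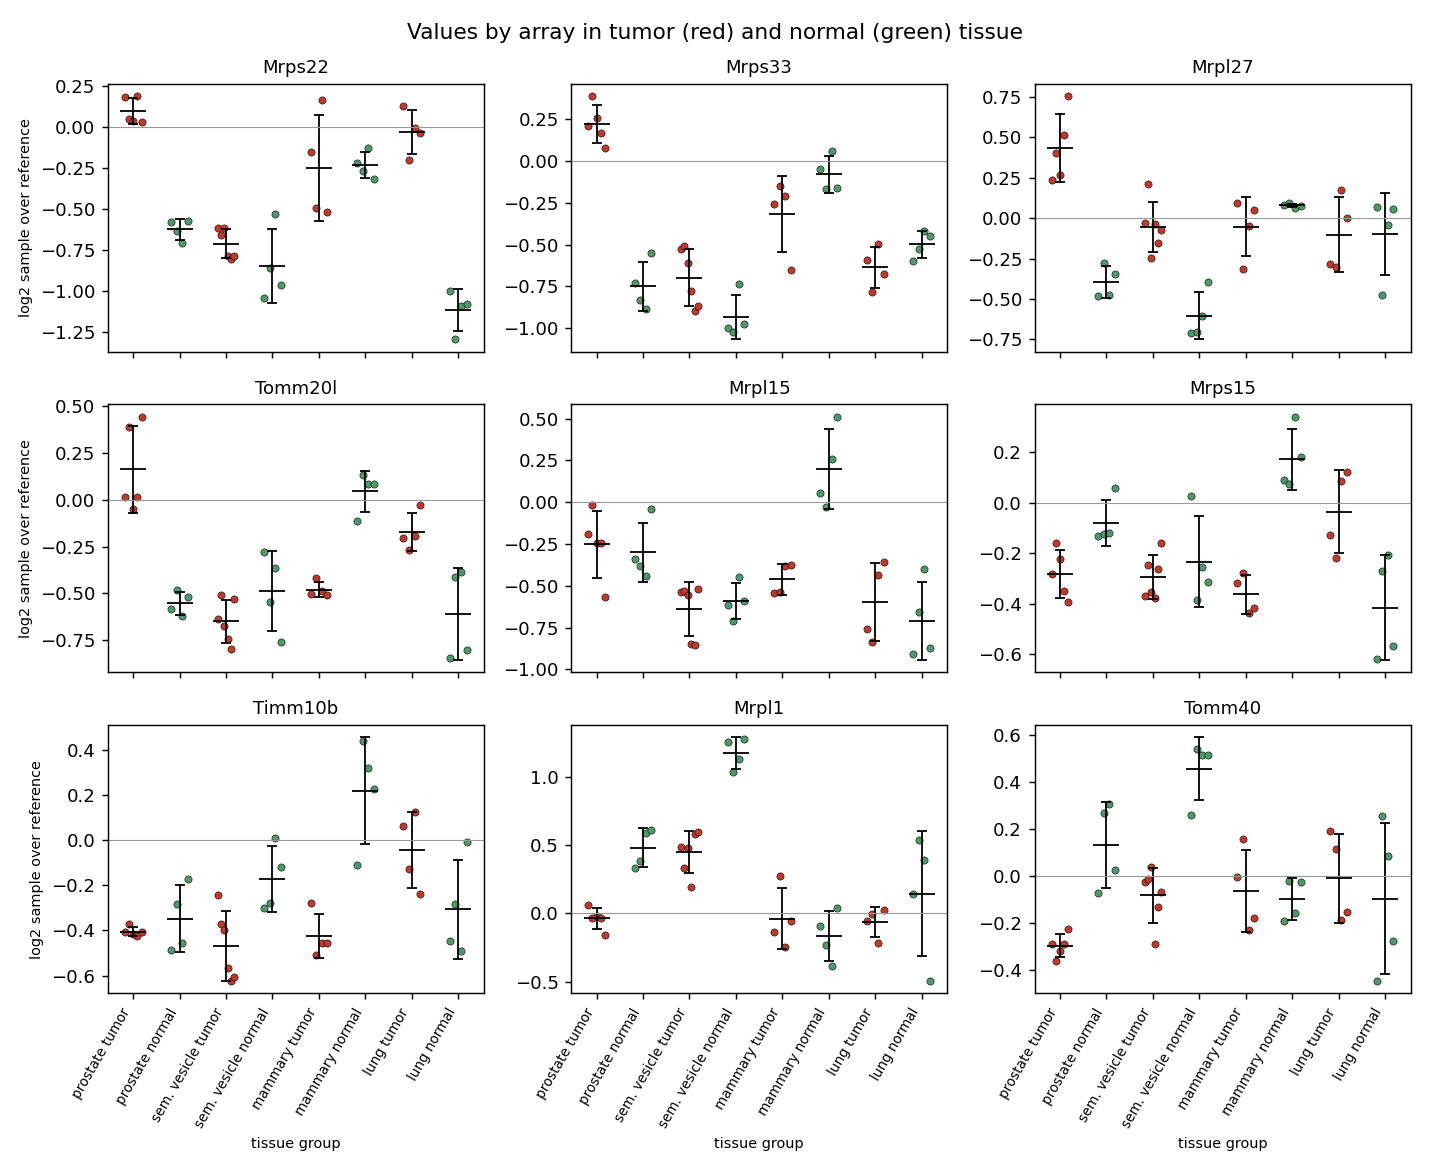
Log2 ratio of tissue over reference for 9 genes, on every reference array. Points are arrays, bars the mean ± SD, and tumors (red) stand left of the normal tissue (green) of the same site. Mrps33 and Mrpl27 stand apart in prostate, Mrps22 in prostate and lung, and Mrpl15 and Mrps15 in mammary gland.

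In seminal vesicle tumors 17 of the 40 genes changed (43.5% of all genes). Of these, 3 rose (23.3% of all genes) and 14 fell (20.2%). The median was -0.07, against 0.04 over all genes. Of the 19 Mrpl genes 7 fell and 2 rose, and of the 13 Mrps genes 5 fell and none rose.

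The falls were led by Mrps18a (-0.87 ± 0.13), one of several forms of the S18 protein, then Mrpl54 (-0.75 ± 0.13), Mrps36 (-0.75 ± 0.12) and Mrpl1 (-0.73 ± 0.13, all SE). Mrpl1 ran from 0.20 to 0.59 with a median of 0.49 in the 6 tumors, against 1.25, 1.03, 1.13 and 1.28 in normal seminal vesicle. Mrpl19, of the large subunit, ran from 0.30 to 0.74 with a median of 0.51 in tumors, against 1.25, 1.09, 1.13 and 1.13 in normal seminal vesicle (change -0.65 ± 0.12, limma adjusted p = 9.2e-05). For both genes every normal sample lay above every tumor. Tomm40 ran from -0.29 to 0.04 with a median of -0.05 in tumors, against 0.26, 0.54, 0.51 and 0.51 in normal samples (change -0.54 ± 0.11, limma adjusted p = 0.000227).

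The 3 genes that rose were Mrpl27 (0.55 ± 0.12, limma adjusted p = 0.00029), Tomm70a (0.36 ± 0.08) and Mrpl49 (0.31 ± 0.10). Mrpl27 ran from -0.24 to 0.21 with a median of -0.06 in tumors, against -0.71, -0.70, -0.61 and -0.40 in normal samples. Tomm70a, the receptor for carrier precursors, ran from -0.70 to -0.39 with a median of -0.45 in tumors, against -0.78, -0.90, -0.79 and -1.01 in normal samples. Neither gene overlapped between the groups. Over the 40 genes, tumors lay wholly above the normal samples for 4 (16.7% of all genes) and wholly below for 12 (16.5%).

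All 4 normal seminal vesicles lie in run 3, which holds no seminal vesicle tumor, so no value within a run exists for this site. With the run as a fixed factor, 3 of the 17 genes passed (13.1% of all genes), namely Mrps18a, Mrps18b and Tomm70a. The only other array of run 3 is 1 mammary tumor, so the effect of that run rests on this array. The changes in seminal vesicle and the run thus cannot be told apart with these arrays, also for these 3 genes.

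In mammary tumors 13 of the 40 genes changed (36.7% of all genes), and all 13 fell (20.1% of all genes fell). None rose, where 16.6% of all genes did, and by limma none was higher at an unadjusted p under 0.05 either, while 16 were lower. The median was -0.13, against -0.02 over all genes. Of the 19 Mrpl genes 8 fell, of the 13 Mrps genes 3 fell, and Timm10b and Tomm20l fell among the import genes.

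Mrpl15, a core protein of the large subunit, had -0.54, -0.54, -0.38 and -0.38 in mammary tumors, against 0.05, -0.03, 0.26 and 0.51 in normal gland (change -0.66 ± 0.13, limma adjusted p = 0.000156). Timm10b had -0.28, -0.51, -0.46 and -0.45 in tumors, against -0.11, 0.44, 0.32 and 0.23 in normal gland (change -0.65 ± 0.12, limma adjusted p = 3.34e-05). Mrps15 had -0.32, -0.28, -0.44 and -0.42 in tumors, against 0.09, 0.07, 0.34 and 0.18 in normal gland (change -0.53 ± 0.10, limma adjusted p = 6.51e-05). Every mammary tumor lay below every normal gland for these 3 genes. Tomm20l had -0.50, -0.42, -0.49 and -0.51 in tumors, against -0.11, 0.13, 0.08 and 0.08 in normal gland (change -0.52 ± 0.12). Mrpl39 (-1.02 ± 0.12), Mrpl23 (-0.76 ± 0.18) and Mrpl17 (-0.68 ± 0.13) had the largest falls by size. Tumors lay wholly below the normal glands for 9 genes (17.9% of all genes) and wholly above for 1 (14%). Within run 1, with 3 tumors and 3 normal glands, 11 of the 40 genes passed, all downward (31.5% of all genes passed there in either direction).

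In lung tumors 15 of the 40 genes changed (36.5% of all genes). Of these, 14 rose (16.2% of all genes) and 1, Mrpl39, fell (20.4%). The median was 0.17, against -0.06 over all genes. Of the 13 Mrps genes 6 rose and none fell, of the 19 Mrpl genes 4 rose, and Tomm20l, Tomm22, Tomm70a and Timm10 rose among the import genes.

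Mrps22 rose most, with 0.13, -0.20, -0.0026 and -0.04 in lung tumors, against -0.998, -1.29, -1.09 and -1.07 in normal lung. Normal lung lay well below the reference and the tumors near it, without overlap. The change was 1.08 ± 0.11 (SE, limma adjusted p = 4.97e-09). Mrps31 followed with 0.55 ± 0.10, Tomm22 with 0.53 ± 0.16 and Mrpl49 with 0.51 ± 0.11.

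Tomm20l had -0.21, -0.27, -0.19 and -0.03 in lung tumors, against -0.84, -0.41, -0.39 and -0.80 in normal lung (change 0.44 ± 0.12, limma adjusted p = 0.00316). Mrpl40 had -0.04, -0.03, 0.10 and -0.02 in tumors, against -0.44, -0.35, -0.30 and -0.40 in normal lung (change 0.38 ± 0.08, limma adjusted p = 0.000247). Mrps15 had -0.13, -0.22, 0.08 and 0.12 in tumors, against -0.62, -0.27, -0.21 and -0.57 in normal lung (change 0.38 ± 0.10), and here the groups overlapped. Lung tumors lay wholly above normal lung for 11 of the 40 genes (15.5% of all genes) and wholly below for 1 (18.9%). Within run 1, with 3 tumors and 3 normal lungs, 9 genes passed (32.9% of all genes), of which 8 are Mrps22 (1.11), Mrps31, Mrpl49, Mrpl32, Mrps14, Mrpl40, Tomm20l and Mrpl39 and the other is Mrps18b (0.35), which did not pass in lung over all arrays. Tomm22 (0.40), Mrps15, Mrps25, Mrps28, Timm10 and Tomm70a (0.26 to 0.27) and Mrpl13 (0.22) did not pass there.

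**Figure D2:**
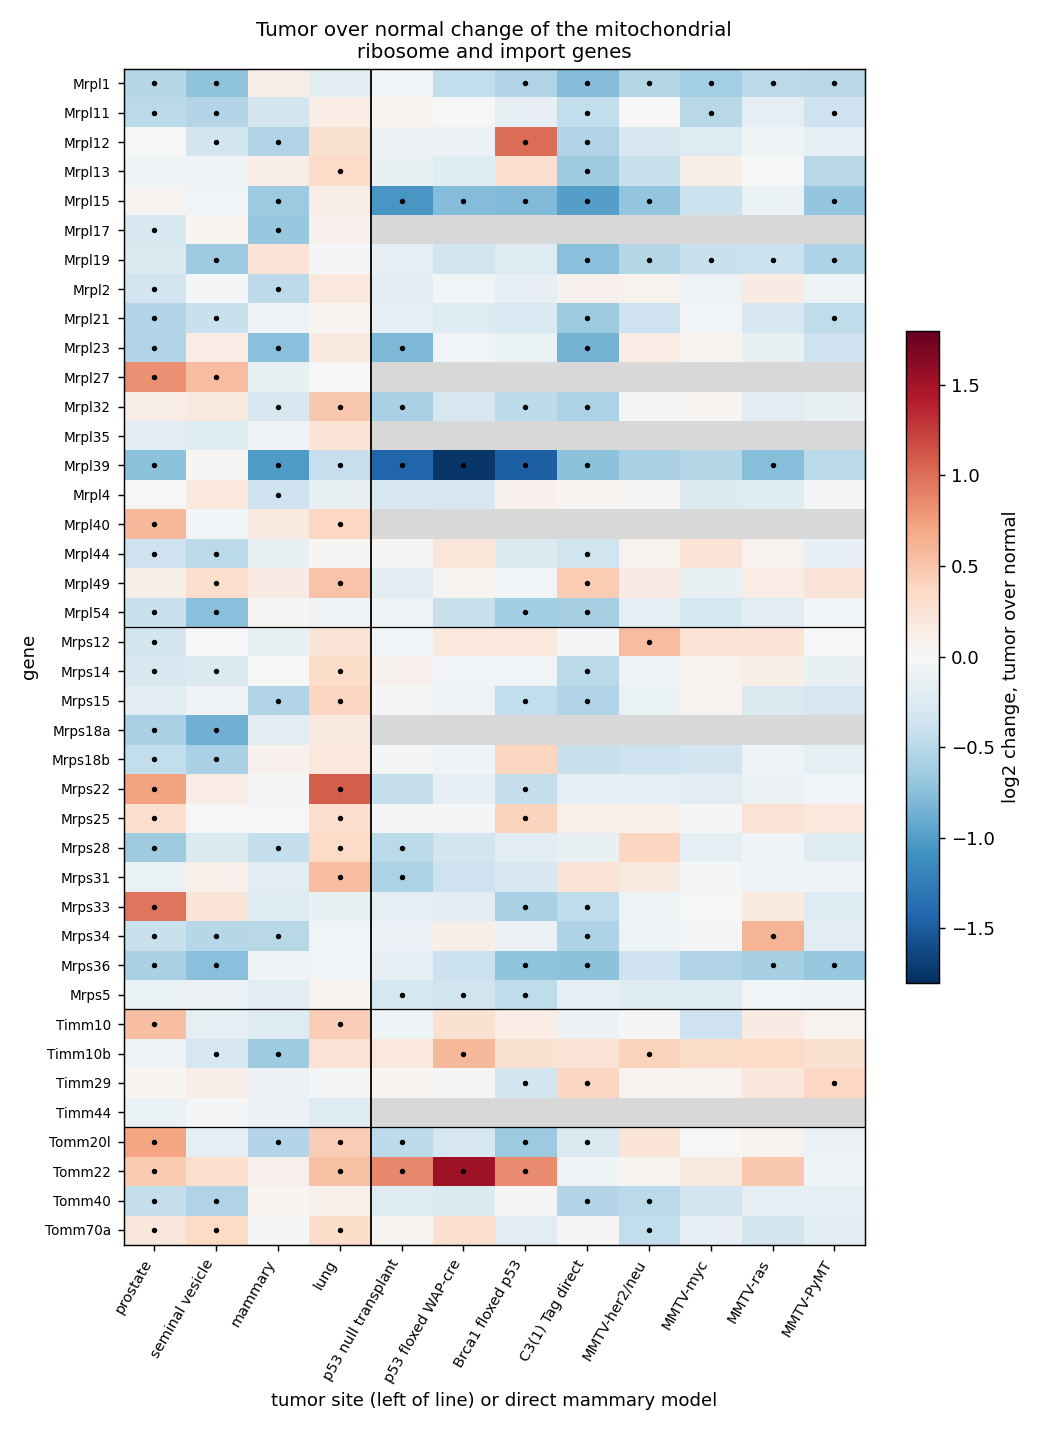
Log2 change of tumor over normal for each gene (down the page) in the 4 sites and the 8 direct models (across). Red is higher and blue lower in the tumor, dots mark genes that passed and grey marks no value. The lung column is mostly positive, the mammary column mostly negative and the Mrpl39 line negative in nearly every column.

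The tumor change differed among the 4 sites for 33 of the 40 genes by a moderated F test over the 4 changes (limma adjusted p under 0.05), where 74.1% of all genes did. The genes were 16 of 19 Mrpl, 12 of 13 Mrps, 2 of 4 Timm and 3 of 4 Tomm. No gene changed the same way in all 4 sites. Mrps34 fell in prostate, seminal vesicle and mammary gland, Mrpl39 fell in prostate, mammary gland and lung, and Tomm70a rose in prostate, seminal vesicle and lung. Mrpl35, Mrps5, Timm29 and Timm44 passed in none.

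A set of 9 of the 40 genes fell in prostate and seminal vesicle tumors and passed in neither mammary nor lung tumors. This pattern was picked after the calls were seen, and 5.93% of all genes showed it. It comprises Mrpl1, Mrpl11, Mrpl21, Mrpl44, Mrpl54, Mrps18a, Mrps18b, Mrps36 and Tomm40. Once the run was fitted, only Mrps18a and Mrps18b of the 9 still passed in seminal vesicle, where change and run cannot be told apart. With the mean of the muscle genes fitted in prostate, only Mrpl21 of the 9 still passed there. That mean separates prostate tumors from normal prostate without overlap, so tumor and muscle content cannot be told apart in this fit. Whether muscle content has a part in the falls of the 9 genes was not tested. The split also follows strain, which cannot be told apart from location. Mammary gland and lung went opposite ways for Mrpl32, Mrps15, Mrps28 and Tomm20l, which fell in mammary tumors and rose in lung tumors (1.11% of all genes did). The mammary call of Mrpl32 is lost without normal replicate 2, 3 or 4 or tumor replicate 2 or 4. The lung call of Mrps28 is lost without lung tumor replicate 3 (0.28). Within run 1 Mrpl32 did not pass in mammary gland (-0.17), nor did Mrps15 and Mrps28 in lung. The difference of the tumor changes, lung minus mammary gland, was tested after the values were seen. It passed for 16 genes (24.2% of all genes), all of them higher in lung (12% of all genes were) and none lower (12.2%). At an unadjusted p under 0.05 it was positive for 23 (17.7% of all genes) and negative for none (17.3%). The largest were Mrps22 (1.10 ± 0.16), Tomm20l (0.96 ± 0.16) and Mrps15 (0.92 ± 0.14). The median difference was 0.37, against -0.01 over all genes.

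The median log2 ratio over the 40 genes was taken on each array. It was -0.13 ± 0.03 in lung tumors, against -0.36 ± 0.10 in normal lung, and -0.22 ± 0.06 in mammary tumors, against -0.04 ± 0.08 in normal gland (SD, n = 4 each). In prostate it was -0.22 ± 0.08 in tumors, against -0.17 ± 0.10 in normal samples, and in seminal vesicle -0.25 ± 0.06 in tumors, against -0.18 ± 0.05 in normal samples (SD, n = 5 and 4, and 6 and 4). The 4 tumor means lay within a narrower range than the 4 normal means.

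The 4 normal tissues differed for 37 of the 40 genes by the moderated F test (79.4% of all genes). Normal mammary gland had the highest mean for 20 genes (28.2% of all genes) and normal seminal vesicle for 15 (29.7%), with prostate highest for 3 (19.5%) and lung for 2 (22.6%). Normal lung had the lowest mean for 20 (17.3%). Seminal vesicle was highest without overlap with the second tissue for 8 genes (14.2% of all genes) and mammary gland for 7 (7.60%). The clearest seminal vesicle genes were Mrpl54 (1.39 ± 0.21), Mrpl1 (1.17 ± 0.11), Mrpl19 (1.15 ± 0.07) and Mrps18a (0.95 ± 0.22), while their means in normal prostate were 0.42, 0.48, 0.45 and 0.29. All of them fell in seminal vesicle tumors, a comparison that shares the same normal samples. Location, strain and run cannot be told apart in these levels.

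Mrpl39 rests on 2 features that disagreed. The feature 642096_1 had -0.53, -0.60, -0.71, -0.70 and -0.53 in prostate tumors, against 1.12, 1.12, 1.16 and 1.33 in normal prostate. In mammary tumors it had -0.26, 0.56, 0.69 and -0.37, against 2.40, 2.18, 2.44 and 2.08 in normal gland. The groups lay far apart at both sites. In lung tumors it averaged -0.44 ± 0.20, against 0.60 ± 0.27 in normal lung (SD, n = 4 each). The changes were -1.79 ± 0.16 in prostate, -2.12 ± 0.17 in mammary gland and -1.04 ± 0.17 in lung (SE), and 0.22 in seminal vesicle did not pass.

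The feature 645722_1 averaged 0.05 ± 0.21 in prostate tumors, against -0.26 ± 0.26 in normal prostate, a rise of 0.31 ± 0.12 (limma adjusted p = 0.0286). It passed at no other site. On the direct arrays 642096_1 fell in all 8 models, with means of -1.25 in MMTV-myc to -3.20 in Brca1 floxed p53 tumors. 645722_1 fell in p53 null transplant tumors (-0.52) and p53 floxed WAP-cre tumors (-0.64) and did not pass in the other 6. Over 35 reference arrays the 2 features had a Pearson r of -0.20.

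Genes most like each feature were looked up after these values were seen, over the same 35 arrays and 6235 genes. For 642096_1 they were Mpc1-ps (r = 0.99), Mlycd (0.95), Sycp3 (0.95), Ddx39b (0.95) and Acadm (0.94). For 645722_1 they were Tlcd1 (0.67), Prss58 (0.63) and Tfb1m (0.62). Mlycd and Acadm are enzymes of fatty acid metabolism. The points share their libraries and tissue groups, and which feature measures Mrpl39 was not tested. The gene's average value is therefore uncertain wherever it is given. It also depends on which feature an array holds, since replicate 5 of the Brca1 floxed p53 tumors has a value for 645722_1 alone. The same holds for C3(1) Tag replicate 4, MMTV-her2/neu replicate 5 and MMTV-PyMT replicates 1 and 5. In p53 floxed WAP-cre replicate 1 has a value for 642096_1 alone.

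**Figure D3:**
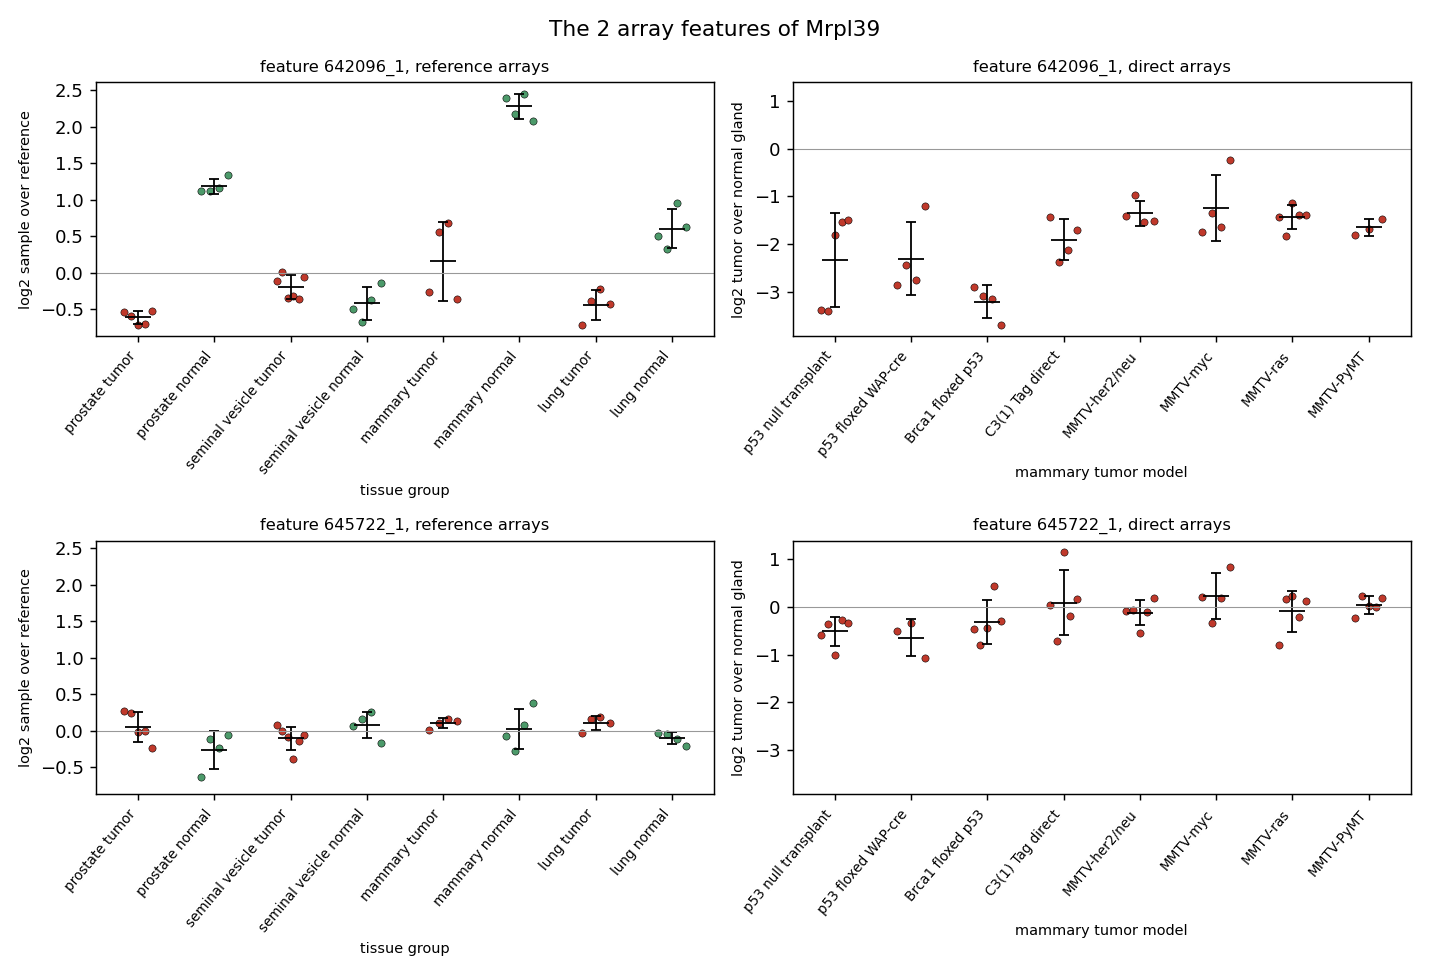
Values of the 2 Mrpl39 features by array, as log2 tissue over reference for the 4 sites (tumor left of normal) and as log2 tumor over normal gland for the direct models. Points are arrays and bars the mean ± SD. The feature 642096_1 separates tumor from normal in prostate, mammary gland and lung and lies below 0 on all 33 direct arrays that hold it. On the direct arrays 645722_1 lies on both sides of 0, with a lowest value of -1.08 in WAP-cre and a highest of 1.15 in C3(1) Tag.

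The 2 features also gave different calls for Mrps5, Mrps25 and Tomm70a at some sites. The features of Tomm70a changed by 0.40 and 0.33 in seminal vesicle tumors, and both rose. In lung they changed by 0.03 and 0.62, and the second rose. In prostate they changed by 0.19 (limma adjusted p = 0.119) and 0.23 (0.0524), and neither passed alone. Those of Mrps5 changed by -0.42 and 0.02 in mammary tumors, and the first fell. They changed by 0.08 and -0.31 in prostate, 0.12 and -0.33 in seminal vesicle and -0.10 and -0.83 in Brca1 floxed p53 tumors, and in all 3 the second fell. The average of Mrps5 is therefore uncertain where it is counted. Those of Mrps25 changed by 0.45 and 0.18 in lung tumors, and the first rose. In seminal vesicle they were 0.26 and -0.26, and neither passed.

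On the direct arrays the counts differed widely between the mammary models. In C3(1) Tag tumors 21 of 34 genes changed (41.8% of all genes), with 2 that rose (22.4%) and 19 that fell (19.5%). In Brca1 floxed p53 tumors 15 changed (47.4%), with 3 that rose (26.2%) and 12 that fell (21.2%). In p53 null transplant tumors 9 changed (20.8%), with 1 that rose (9.66%) and 8 that fell (11.1%). In each of these models more genes fell than rose. The Brca1 count depends on the setting. It was 2 that rose and 2 that fell under quantile normalization (37.2% of all genes passed) and none and 2 with that model fitted alone (19.2%).

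The other 5 models had fewer. In MMTV-PyMT tumors 7 genes changed (30.3%), with 1 that rose (18.3%) and 6 that fell (12%). In MMTV-her2/neu tumors 7 changed (25.9%), with 2 that rose (15%) and 5 that fell (10.9%). In p53 floxed WAP-cre tumors 5 changed (29.1%), with 2 that rose (18%) and 3 that fell (11.1%). In MMTV-ras tumors 5 changed (18.9%), with 1 that rose (9.97%) and 4 that fell (8.89%). In MMTV-myc tumors 3 changed (23.1%), all of which fell (10.9%), and none rose (12.2%), with 1 higher at an unadjusted p under 0.05. The share that changed lay below that of all genes in each of the 5.

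The deposited direct ratios are not centred, and the median change of all genes as deposited was 0.36 in C3(1) Tag and 0.24 in Brca1 floxed p53 tumors, against 0.02 and 0.06 after centring. Changes here are relative to that median. With the values as deposited, C3(1) Tag had 7 genes that rose (41.8% of all genes) and 4 that fell (4.33%), and Brca1 floxed p53 had 6 (34.9%) and 5 (12.1%). MMTV-ras had 3 that rose (17.2%) and none that fell (2.98%), and MMTV-myc had 1 (20.8%) and none (2.72%), by limma throughout. The direction in these 4 models thus depends on the centring, and the falls that passed in C3(1) Tag tumors either way were those of Mrpl1, Mrpl15, Mrpl19 and Mrpl23. Without C3(1) Tag replicate 2 the count there was 11.

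**Figure D4:**
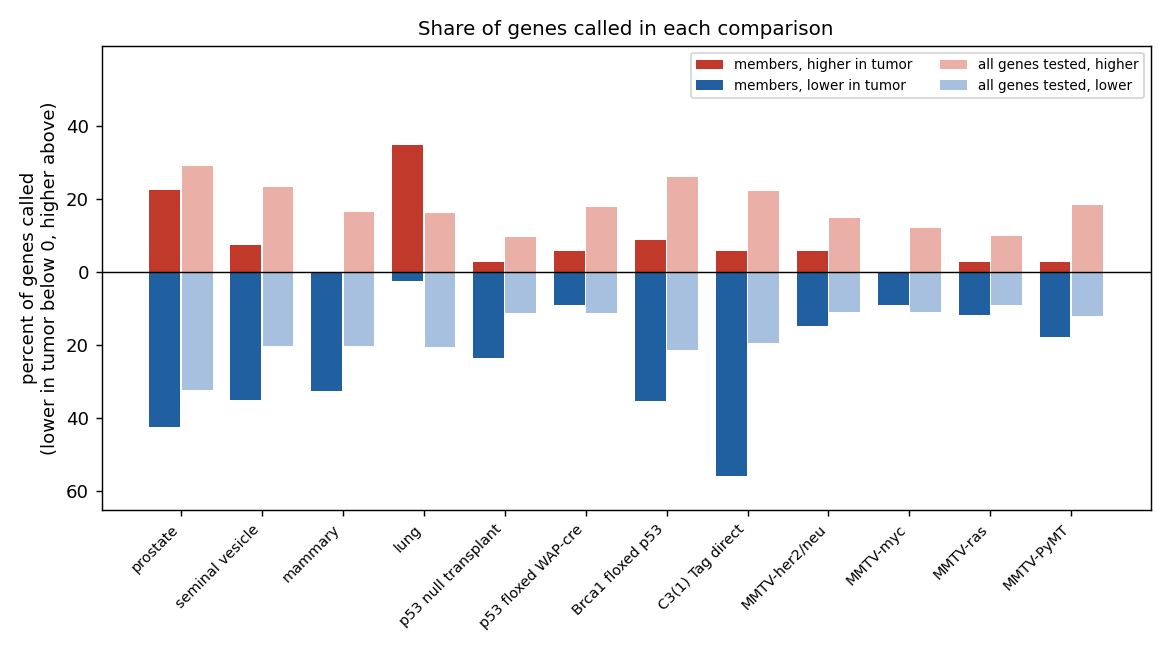
Share of the mitochondrial genes that rose and fell in each comparison, beside the share of all genes tested. Dark bars are the mitochondrial genes (members in the legend) and pale bars all genes, with rises above 0 and falls below it. The falls in C3(1) Tag tumors and the rises in lung tumors exceed the shares of all genes by the widest margins.

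Mrpl1 and Mrpl15 fell in 6 of the 8 models, Mrpl19 in 5 and Mrps36 in 4, and the mean of each was negative in all 8. Several of these calls are lost when 1 array is left out. For Mrpl1 they are those in MMTV-PyMT (without replicate 3 or 5), MMTV-her2/neu (1 or 2), MMTV-myc (1 or 3) and MMTV-ras (1, 3, 4 or 5), so 2 of the 6 are kept. For Mrpl15 they are those in MMTV-her2/neu (1, 3 or 4) and p53 floxed WAP-cre (3 or 4). For Mrpl19 they are those in MMTV-myc (1, 2 or 3) and MMTV-ras (1, 3 or 4). For Mrps36 they are those in C3(1) Tag (2), MMTV-PyMT (1 or 5) and MMTV-ras (1, 3, 4 or 5). Mrpl1 had -0.77, -1.28, -0.03, -0.65 and -1.19 in C3(1) Tag tumors, all below the median of their array (change -0.78 ± 0.16, limma adjusted p = 0.000165). It did not pass in p53 null transplant tumors, with 0.01, 0.12, 0.13, -0.11 and -0.40. The reference arrays of C3(1) tumors gave 0.13 ± 0.14 for Mrpl1 in mammary gland, which did not pass, and the difference between the array sets was not tested.

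Mrpl15 had -1.49, -1.07, -1.26, -0.49 and -0.96 in p53 null transplant tumors (change -1.05 ± 0.21, limma adjusted p = 0.000267). In C3(1) Tag tumors it had -0.69, -1.31, -1.18, -0.72 and -1.06 (change -0.99 ± 0.21). In all 10 tumors it lay below the median of the array, and Mrpl15 fell in the mammary tumors of the reference arrays too. Mrpl19 had -0.69, -0.56, -0.50, -0.42 and -0.42 in MMTV-her2/neu tumors (change -0.52 ± 0.13, limma adjusted p = 0.00286). In MMTV-myc it had -0.63, -0.54, -0.38 and -0.04 (change -0.40 ± 0.14).

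Tomm22, the central receptor of the outer membrane, rose in 3 models and did not pass in the other 5. The 3 are the models whose labels name p53 and also the ones not on FVB. They share no run of array numbers with the other 5, so genotype, strain and run cannot be told apart. Tomm22 had 1.57, 1.66, 2.01 and 0.85 in p53 floxed WAP-cre tumors (change 1.52 ± 0.32, limma adjusted p = 0.000496). In Brca1 floxed p53 tumors it had 1.53, 1.57, 1.46, -0.08 and -0.24, so 3 tumors were high and the other 2 near the array median (change 0.85 ± 0.29, limma adjusted p = 0.0162). In p53 null transplant tumors it had 0.39, 0.26, -0.02, 0.81 and 2.86, and without replicate 5 the change of 0.86 became 0.36 and did not pass. It did not pass without replicate 4 either (0.87). The Brca1 call is lost without replicate 1, 2 or 3.

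Mrpl12, a large-subunit protein that in human cells also binds the mitochondrial RNA polymerase, was high in the same 3 Brca1 floxed p53 tumors. It had 1.96, 1.82, 1.54, -0.30 and -0.00068 there (change 1.00 ± 0.20, limma adjusted p = 7.35e-05). Replicates 1 to 3 and replicates 4 and 5 of this model lie in different runs of array numbers, and the median over the mitochondrial genes was 0.10, -0.14, 0.07, -0.41 and -0.50 on the 5 arrays. The tumors and the run cannot be told apart there. In the other models the means of Mrpl12 ran from -0.54 in C3(1) Tag to -0.08 in MMTV-ras. Timm10b was the one gene whose mean was above 0 in all 8 models. It rose in p53 floxed WAP-cre tumors, with 0.22, 1.02, 0.75 and 0.32 (change 0.58 ± 0.14, limma adjusted p = 0.00249), and in MMTV-her2/neu tumors, with 0.30, 0.40, 0.73, 0.36 and 0.25 (change 0.41 ± 0.13). The MMTV-her2/neu call is lost without replicate 3 (0.33, limma adjusted p = 0.104). In C3(1) Tag it was 0.25 ± 0.13 on the direct arrays, against the fall of 0.65 on the log2 scale in C3(1) mammary tumors on the reference arrays. That difference between array sets was not tested.

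Tomm20l fell in Brca1 floxed p53 tumors, with -0.92, -0.93, -0.68, -0.27 and -0.46 (change -0.65 ± 0.11, limma adjusted p = 7.47e-06), and in p53 null transplant tumors (-0.47 ± 0.11). It fell in C3(1) Tag tumors too, a call that is lost without replicate 2, 3 or 5 (-0.21 to -0.24). It was 0.07, 0.12, 0.31, 0.34 and 0.32 in MMTV-her2/neu tumors, where its change of 0.23 ± 0.11 did not pass. Other changes among the 2 largest each way were Mrpl49 at 0.45 ± 0.15 and Timm29 at 0.39 ± 0.09 in C3(1) Tag, Mrps12 at 0.55 ± 0.16 in MMTV-her2/neu, Mrps34 at 0.61 ± 0.19 in MMTV-ras and Timm29 at 0.37 ± 0.09 in MMTV-PyMT tumors. The rise of Mrps34 did not pass without MMTV-ras replicate 4 (0.18). The change differed among the 8 models for 11 of the 34 genes by the moderated F test (42.1% of all genes), among them 3 of the 4 Tomm genes. In every model 9 or 10 of 10 adipocyte genes and at least 9 of 15 skeletal muscle genes fell, and their part was not tested.

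**Figure D5:**
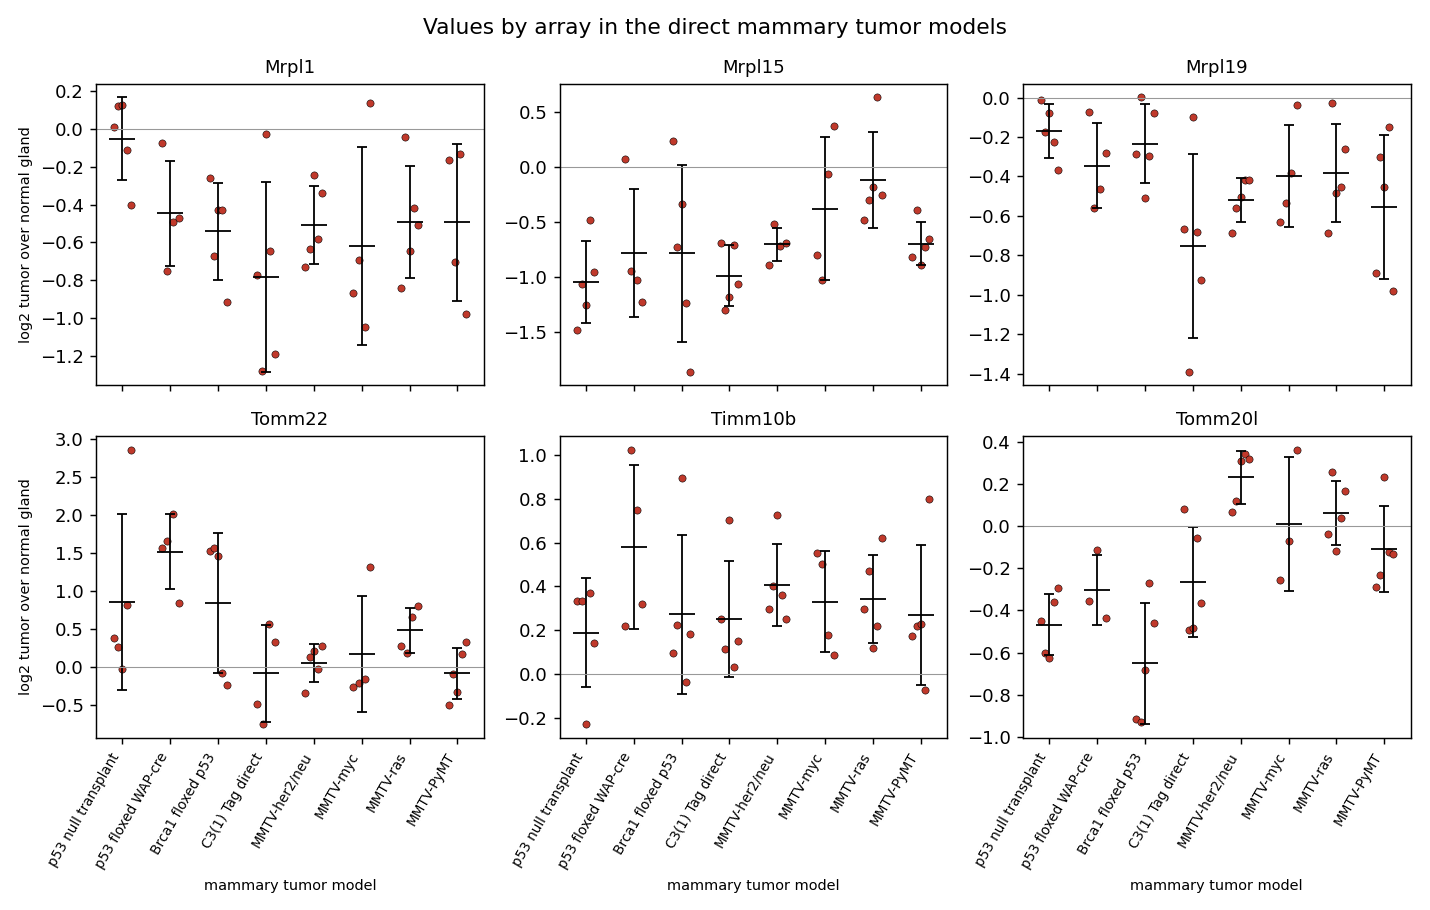
Log2 ratio of tumor over normal mammary gland, centred per array, for 6 genes in the 8 direct models. Points are arrays and bars the mean ± SD, and the line at 0 is the median of all features on the array. Mrpl1, Mrpl15 and Mrpl19 lie mostly below 0, Tomm22 is high in WAP-cre and in part of the p53 null and Brca1 tumors, and Timm10b lies mostly above 0.

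Other genes of mitochondrial function were counted from lists made for this comparison. The shares of all genes that rose and fell in each comparison are those given above. Of 45 genes for subunits of the respiratory chain and ATP synthase, 29 fell and 4 rose in prostate tumors (median -0.43), and 34 fell and 1 rose in mammary tumors (median -0.75). In seminal vesicle tumors 10 fell and 7 rose, and in lung tumors 4 fell and 6 rose. The lung change exceeded the mammary change for 26 of the 45. Of 28 genes of the cytosolic ribosome, 19 rose in prostate, 2 in seminal vesicle and 5 in lung tumors, and 16 fell in mammary tumors.

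A list of other mitochondrial translation genes held ribosomal proteins named otherwise, tRNA ligases and factors, and 11 of its genes were tested. In prostate tumors 1 rose and 6 fell, and the same numbers held in seminal vesicle tumors. In mammary tumors 1 rose and 2 fell, and in lung tumors 1 fell. Of 12 import partners, such as matrix chaperones and processing peptidases, 5 rose and 1 fell in prostate tumors, 2 rose and 2 fell in seminal vesicle, 5 fell in mammary gland and 3 rose in lung. Of 13 genes that keep, transcribe or regulate the mitochondrial genome, 5 rose and 3 fell in prostate, 3 rose and 1 fell in seminal vesicle, 1 rose and 1 fell in mammary gland and 6 rose in lung.

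On the direct arrays 31 of 38 respiratory chain genes fell in Brca1 floxed p53 tumors, 28 in C3(1) Tag, 23 in MMTV-PyMT, 18 in p53 null transplant, 17 in p53 floxed WAP-cre, 10 in MMTV-her2/neu, 7 in MMTV-myc and 5 in MMTV-ras tumors, and 1 to 3 rose in each. Of 26 cytosolic ribosome genes 17 rose in p53 floxed WAP-cre tumors (18% of all genes) and 16 in MMTV-her2/neu tumors (15%). Of the 34 mitochondrial genes 2 rose in each of these. In MMTV-ras 11 of the 26 rose, in MMTV-myc 9, in p53 null transplant 5 and in MMTV-PyMT 5. In Brca1 floxed p53 tumors 6 rose and 1 fell, and in C3(1) Tag 1 rose and 3 fell.

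After the group means were removed, the mean of the mitochondrial genes over 35 arrays was most like Ndufa2 (r = 0.86), Hsd17b10 (0.84), Cenpw (0.83), Cox8a (0.83) and Krtcap2 (0.82), among 6197 genes with values on all arrays. Ndufa2 and Cox8a are subunits of respiratory chain complexes. Of the 39 mitochondrial genes with complete values, 35 had a positive r with the mean of the others, with a median of 0.50, a lowest of -0.52 (Timm29) and a highest of 0.77. The points share their libraries and hybridisations.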

How the data were processed

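The authors deposited 1 table per array, with log2 ratios per feature. The log base and the direction are not stated in the labels. Base 2 was taken because 2633 of 9532 features then pass the 2-fold limit of the series text, which states 2638, and the direction was checked on tissue markers. Hybridisation, image analysis and normalization by the authors are not given in the sources used here. The number of arrays limits the precision.

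Features were named through the platform annotation (7486 of 9596 with 1 symbol, 7395 by gene ID), giving 6777 genes for the reference set and 5768 for the direct set. Features of a gene were averaged per array. Reference ratios were used as deposited (array medians -0.05 to 0.01), and direct ratios were centred (medians -0.42 to 0.66). Arrays held values for 9244 to 9572 features (reference set) and 7042 to 7934 (direct set). limma 3.58.1 (R 4.3.3) was fitted with group means over all arrays of a set, with at least 3 values per group and Benjamini-Hochberg adjustment over all genes at 0.05, after a test on simulated data. Motifs were counted in Python 3.11.15.

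The genes and the lists were chosen with earlier results of these data known. Values by array were given for the 3 genes per subgroup with the smallest p in the F test over sites, and for the 4 genes called one way in most direct models. The 4 largest changes each way per site and the 2 largest per model were given with their error, and others were named by count or after their values were seen.

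Replicate numbers of tumor and normal samples were not taken as pairs. Deviations of same-numbered samples correlated at -0.24 to 0.23 and no site had every pair over 0.1, which does not exclude a pairing. Alternatives were median centring, quantile normalization, values as deposited, complete values only, the replicate block, the run, a muscle covariate, each model alone, arrays within run 1 (added after the data were seen) and each array left out.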

Additional observations from a re-analysis of the deposited data

Results flagged for a closer look

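Among the genes described by array, 1 array lay far from its group by Dixon's test in 13 cases, and the median over the genes did so in 1. Chance flags about 1 in 20 groups, and 204 tests were made on genes and 16 on medians. In the SV40 tumor series these were Mrps15 at 0.0566 in normal prostate replicate 4, Mrps33 at -0.74 in normal seminal vesicle replicate 3, Tomm40 at 0.26 in normal seminal vesicle replicate 1, and Mrpl19 at -0.12 and Mrpl40 at 0.10 in lung tumor replicate 3. In the direct models they were Tomm40 at -0.60 in p53 null transplant replicate 5 and, in Brca1 floxed p53 tumors, Mrpl39 at -0.30 in replicate 5, Timm10b at 0.89 in replicate 3 and Tomm70a at -0.71 in replicate 2. Among the Brca1 floxed p53 arrays, replicate 5 is the one that holds a value for only 1 of the 2 Mrpl39 features. Others were Mrps33 at -0.41 in MMTV-her2/neu replicate 3, Mrpl39 at 0.30 and Mrps22 at -0.60 in MMTV-myc replicate 4, and Mrpl15 at 0.63 in MMTV-ras replicate 4. The median over the genes was -0.35 in MMTV-PyMT replicate 1.

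The tumor change differed between sites for 14 genes described by array (moderated F test in limma). The adjusted p was 0.00157 for Mrpl1, 0.00155 for Mrpl15, 0.000507 for Mrpl19, 2.28e-05 for Mrpl27, 5.2e-06 for Mrpl39, 2.16e-05 for Mrpl40 and 1.66e-05 for Mrps15. It was 7.45e-07 for Mrps22, 5.63e-08 for Mrps33, 0.00054 for Timm10, 0.000109 for Timm10b, 1.4e-07 for Tomm20l, 0.00134 for Tomm40 and 0.0162 for Tomm70a. Between the 8 direct models the limma adjusted p was 0.00596 for Mrpl39, 0.000383 for Tomm20l and 0.0313 for Tomm70a.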

How the results depend on the processing

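Counts of mitochondrial genes that passed stayed within 1.5 times of the reported count in 63 refits and moved further in 16, besides those that leave out an array. With the run as a fixed factor the count was 3 in seminal vesicle and 19 for the test among sites. Prostate had 6 with the muscle covariate and 14 within run 1, and lung had 9 within run 1. With values as deposited C3(1) Tag had 11, MMTV-myc 1 and MMTV-ras 3. Quantile normalization gave 4 in Brca1 floxed p53 (2 rose, 2 fell), 12 in MMTV-her2/neu (4 and 8) and 8 in MMTV-ras (4 and 4), and its split was 1 and 18 in seminal vesicle. Fitting each model alone gave 2 in p53 floxed WAP-cre, 2 in Brca1 floxed p53, 13 in MMTV-her2/neu, 11 in MMTV-PyMT and 0 in MMTV-myc, where 3 fell at an unadjusted p under 0.05 in limma. The cause of these moves was not tested. Tomm20l in C3(1) Tag turned to 0.0686 as deposited, against -0.26 centred.

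Leaving out 1 array gave 22 to 26 in prostate, 15 to 19 in seminal vesicle, 12 to 15 in mammary gland and 13 to 16 in lung. In the direct models it gave 7 to 8 in p53 null transplant, 4 to 6 in p53 floxed WAP-cre, 11 to 17 in Brca1 floxed p53, 11 to 20 in C3(1) Tag, 4 to 9 in MMTV-her2/neu, 1 to 4 in MMTV-myc, 1 to 5 in MMTV-ras and 3 to 7 in MMTV-PyMT. The count was 11 without C3(1) Tag replicate 2, 4 without MMTV-her2/neu replicate 1, 1 without MMTV-myc replicate 1 or 3, 1 without MMTV-ras replicate 1 or 4, 2 without MMTV-ras replicate 3, 4 without MMTV-PyMT replicate 1 and 3 without MMTV-PyMT replicate 5. Among values of single genes 659 kept their call, 98 did not pass and 1 reversed.

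With the replicate number as a block the counts were 23 in prostate, 16 in seminal vesicle, 13 in mammary gland, 14 in lung, 31 among sites, 13 for lung minus mammary gland and 11 among models. As far as the labels show, the samples share only a number, and the block was not run for the normal tissues.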
